A study of Homo sapiens with 22 samples.

Results

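The genes of the cytosolic ribosomal proteins were followed in PC9 cells, an established human lung adenocarcinoma line that depends on an activated EGFR, and in derivatives of that line. Members were the protein-coding rows whose symbol is RPL or RPS followed by a number, with an optional A, X or L, or RPLP0, RPLP1 and RPLP2, together with RPSA and FAU. This gave 79 of the 17165 genes in the table, 47 of the large subunit and 32 of the small subunit, and all 79 passed the filter on low values. The 11 groups, of 2 libraries each, were parental PC9 cells (vehicle, gefitinib or WZ4002), PC9-GR2 and PC9-GR3 derivatives (vehicle or WZ4002 each), cells labelled gefitinib-tolerant given vehicle or gefitinib, and cells labelled WZ4002-tolerant given vehicle or WZ4002. Gefitinib is a reversible and WZ4002 a covalent EGFR inhibitor. Treatment lasted 24 h, at a dose that the labels give as 1 mM. The labels do not say whether a derivative is a single clone, or whether a group's 2 libraries are from different cultures. The p-values therefore measure library-to-library spread only, and that spread may be technical.

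A cytosolic ribosome is built from ribosomal RNA and about equal amounts of each of its proteins. Their messenger RNAs are abundant and belong to the class that starts with a C followed by a run of pyrimidines (C or T), the TOP motif, through which mTOR signalling and the RNA-binding protein LARP1 control their translation and stability. The genes have many processed pseudogenes, near-identical copies elsewhere in the genome, which makes short reads hard to place.

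The start of the transcript is shown for 12 members, because most of the family shares it and because 2 of the members with the largest differences and the paralog RPS27L depart from it. RefSeq promoter sequences (GRCh38.p14) were found for 64 of the 79 members. Where a gene had several listed promoters, the one with the longest run of pyrimidines beginning with C at the start is shown. The lines thus illustrate the run and do not measure how often it is used. Each line runs from 20 bases before the start to the 20 transcribed bases that begin at it, on the gene's own strand, and capitals mark the unbroken run of pyrimidines that begins with C at the start.
RPLP0 (chr12:120201092-120201131, minus strand): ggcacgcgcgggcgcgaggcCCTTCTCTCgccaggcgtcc
RPL3 (chr22:39319604-39319643, minus strand): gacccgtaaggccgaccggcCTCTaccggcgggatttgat
RPL13A (chr19:49487588-49487627, plus strand): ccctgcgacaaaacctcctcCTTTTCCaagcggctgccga
RPL28 (chr19:55385912-55385951, plus strand): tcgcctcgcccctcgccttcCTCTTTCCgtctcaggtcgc
RPL38 (chr17:74203658-74203697, plus strand): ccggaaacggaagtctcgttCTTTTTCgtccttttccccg
RPS3 (chr11:75399498-75399537, plus strand): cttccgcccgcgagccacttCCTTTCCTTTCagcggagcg
RPS6 (chr9:19380217-19380256, minus strand): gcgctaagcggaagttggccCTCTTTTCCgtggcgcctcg
RPS7 (chr2:3575240-3575279, plus strand): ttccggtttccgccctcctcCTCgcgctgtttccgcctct
RPS12 (chr6:132814549-132814588, plus strand): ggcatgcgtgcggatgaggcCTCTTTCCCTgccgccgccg
RPS27 (chr1:153990742-153990781, plus strand): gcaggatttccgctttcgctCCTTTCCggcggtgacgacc
RPS27L (chr15:63157458-63157497, minus strand): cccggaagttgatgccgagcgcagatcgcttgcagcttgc
FAU (chr11:65122115-65122154, minus strand): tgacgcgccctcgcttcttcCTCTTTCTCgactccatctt

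A C at the start followed by at least 4 more C or T was found in 47 of the 64 members (73.4%), against 5.14% of the 27305 genes in the promoter table and 7.29% of the 10718 tested genes in it. RPL3 and RPS7 fell short of this length, and RPS27L had no such run. The letters CTTTC on the sense strand, which overlap this run, occurred between 10 bases before and 20 bases after the start in 34 of 64 members (53.1%), in 5.29% of all promoters and in 5.87% of those of tested genes. The letters CCGGAAG, on either strand, the core recognised by ETS factors, occurred within the 300-base promoter in 23 of 64 members (35.9%), in 12.2% of all promoters and in 22.2% of those of tested genes. A gene was counted for a pattern if any of its listed promoters had it, and the same rule was used for members and for all genes. These matches describe the letters in the windows and not binding.

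Libraries held 23.6 to 49.6 M reads, estimated from the steps between the values. These totals are uncertain, and the highest, of GR2 vehicle replicate 1, has a second possible value. The keratin, EPCAM, CDH1 and EGFR markers of a lung epithelial line summed to 2961 to 8211 CPM (read counts scaled to the library total) per library. Of 10 markers of leukocytes, endothelium and fibroblasts, 4 (CD3E, CD68, PECAM1 and PTPRC) had no row, and the other 6 summed to 13.5 to 55.1 CPM. DUSP6, a target of EGFR and ERK signalling, stood at 110 and 103 CPM in the parental vehicle libraries and at 0.34 and 0.35 CPM under gefitinib.

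Libraries that stood apart were found in 2 respects. In the order of the table's columns, the last 4 libraries (parental WZ4002 replicate 2, both GR2 vehicle libraries and WZ4002-tolerant WZ4002 replicate 2) had 1.73 to 2.19 times as many reads on RPS27A as on its pseudogene RPS27AP16, against 1.01 to 1.39 times in the other 18. This ratio thus moved with the run of columns, and both GR2 vehicle libraries lie in that run. Whether the assignment of reads to near-identical copies or the RNAs themselves differed was not tested. Parental WZ4002 replicate 2 also differed from its partner along chromosome 3. The 40 tested genes nearest to RPL32 had a median difference from the parental vehicle mean of -0.55 in log2(CPM + 1) in that library, against -0.10 in replicate 1 and -0.67 and -0.66 in the GR2 vehicle libraries. The part of these library differences in the results was not tested beyond the values given with and without them.

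The members together took 1.19 to 2.20% of the reads of a library. The share was 1.85% ± 0.08 (SD, n = 2) in parental vehicle cells and 2.0% ± 0.04 in GR2 vehicle cells. It was 1.35% ± 0.06 in GR3, 1.34% ± 0.12 in gefitinib-tolerant and 1.36% ± 0.05 in WZ4002-tolerant vehicle cells (n = 2 each). Under the inhibitors it was 1.95% ± 0.04 (gefitinib) and 1.80% ± 0.06 (WZ4002) in parental cells, 2.15% ± 0.07 in GR2, 1.41% ± 0.05 in GR3, 1.25% ± 0.07 in gefitinib-tolerant and 1.36% ± 0.08 in WZ4002-tolerant cells. Every library of GR3 and of the tolerant populations, at 1.19 to 1.45%, lay below every parental and GR2 library, at 1.75 to 2.20%, with or without drug. In bulk RNA, fewer cells of a kind and less RNA per cell cannot be told apart.

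**Figure D1:**
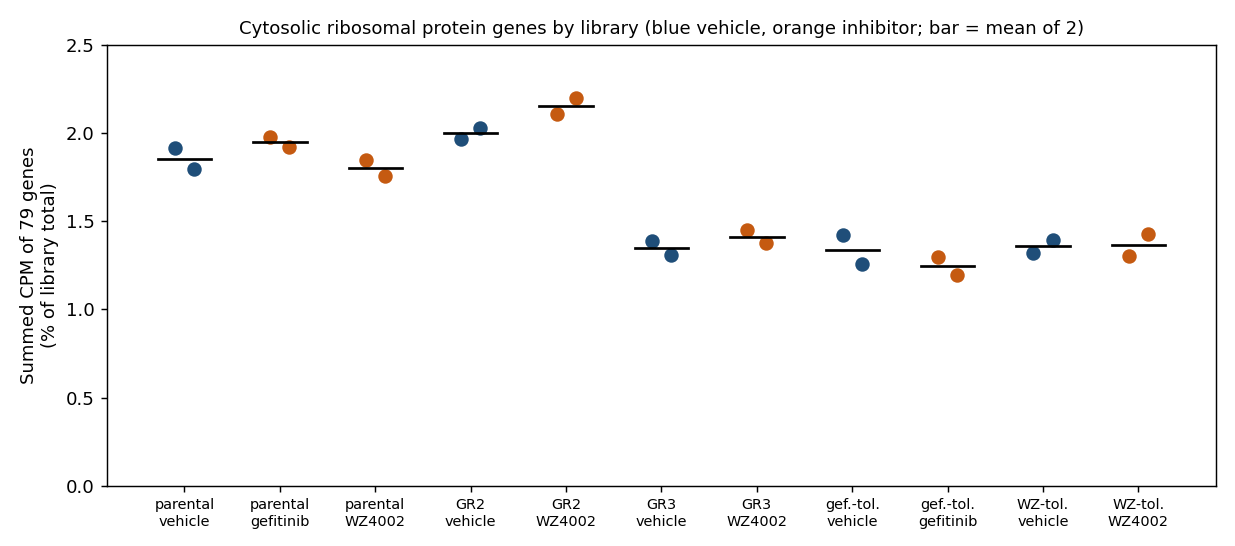
Summed CPM of the 79 ribosomal protein genes as a percentage of the library total (vertical axis, from 0) for the 22 libraries in 11 groups. Points are libraries and bars are means of 2. The GR3 and tolerant libraries sit between 1.19 and 1.45% and the parental and GR2 libraries between 1.75 and 2.20%.

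Levels differed widely between members, and the level moved with how much of each gene could be read uniquely. Per kilobase of coding length, mean levels ran from 2.51 CPM for RPS3A, 3.0 for RPL7 and 5.63 for RPL21 to 1350 for RPL37A and 1542 for RPL8. The share of a member's coding 50-base stretches that occur in no other transcript of the GENCODE 29 annotation ran from 0 to 100%. Across the 79 genes, which are not independent replicates and share the same libraries, this share and the log2 level per kilobase had a Spearman correlation of 0.76. The 20 members with at least 80% unique stretches had a median of 804 CPM per kilobase, and the 59 others had 231. All 10 members with a mean below 10 CPM (RPS27, RPS3A, RPL7, RPL36A, RPL21, RPS10, RPS26, RPL41, RPL17 and RPL9) had less than 10% unique stretches. Reads that fit several places are commonly not counted, and the setting is not given in the sources used here, so the order of members by level is not an order of their messenger RNAs.

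**Figure D2:**
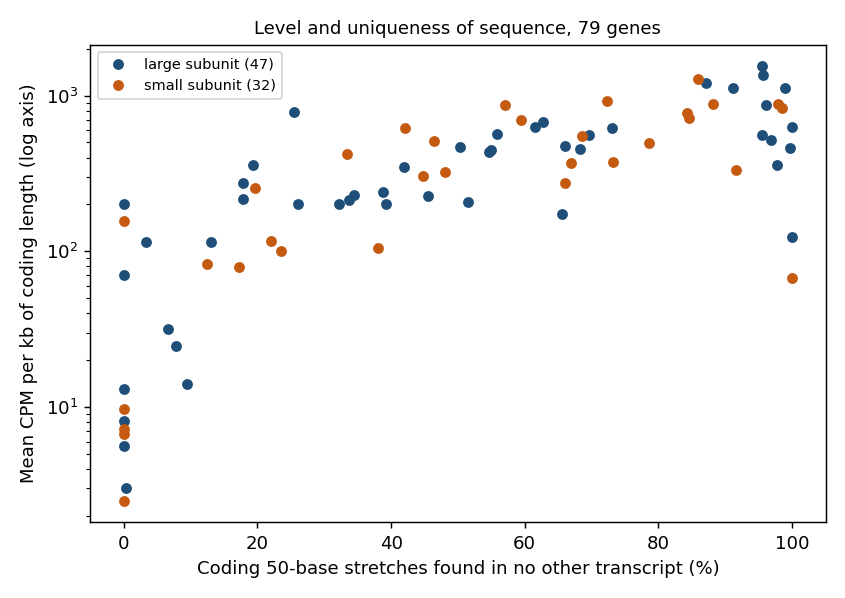
Mean level per kilobase of coding length (vertical log axis, CPM per kb, mean of 22 libraries) against the percentage of coding 50-base stretches found in no other transcript (horizontal axis). Each point is 1 of 79 genes, blue for the large and orange for the small subunit. RPS3A and RPL21, with 0% unique stretches, lie at 2.51 and 5.63, and RPL8, with 95.4%, at 1542.

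RPS27 and RPL39 each have a paralog with unique sequence. RPS27 encodes a small-subunit protein and ranged from 0.74 to 2.74 CPM with 0% unique stretches and 12 pseudogenes that share its sequence. Its paralog RPS27L, a p53-responsive gene, had 100% unique stretches and ranged from 5.84 to 32.9 CPM. RPL39, at 21.9 to 41.8 CPM, had 0% unique stretches, and its paralog RPL39L, which is best known from male germ cells and tumours, had 100% and ranged from 5.68 to 28.9 CPM. Per kilobase of coding length, mean levels were 7.19 CPM for RPS27 and 67.4 for RPS27L, and in the opposite order 199.9 for RPL39 and 123 for RPL39L.

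In vehicle-treated GR3 cells most members were lower than in parental cells. By limma on log2(CPM + 1) with Benjamini-Hochberg adjustment over all 15485 genes tested, 45 of 79 members were lower and 0 higher at an adjusted p under 0.05, where 20.8% of all genes were called and 11.1% were called lower. The median difference of the members was -0.42, a ratio of 0.745, and that of all genes was 0.02. Of the 1357 genes with a mean of at least 100 CPM, 24.5% were called lower, with a median of -0.14. Both subunits were involved, with 28 of 47 large-subunit and 17 of 32 small-subunit members lower. Of the 20 members with at least 80% unique stretches 13 were lower, with a median of -0.43.

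The GR3 difference held for proteins of several roles. RPLP0, the base of the stalk that recruits translation factors, stood at 241 and 221 CPM in parental vehicle libraries and at 165 and 166 in GR3, a difference of -0.48 ± 0.10 (SE; adjusted p = 0.00365). RPL3, which lies near the peptidyl transferase centre, stood at 748 and 620 CPM against 365 and 409, a difference of -0.82 ± 0.12 (adjusted p = 0.000198). RPS6, the substrate of the S6 kinases downstream of mTOR, stood at 583 and 558 CPM against 414 and 396 (-0.49 ± 0.11, adjusted p = 0.00377). In none of these 3 genes did the 2 groups overlap. With 2 libraries per group this is common, since 26.3% of all genes tested lay wholly lower in GR3 and 28.2% wholly higher. For the comparisons of drug with vehicle below, such shares were not counted, so non-overlap there only describes the libraries. RPS3, which lines the entry of the messenger RNA channel, was also lower (-0.48 ± 0.11), as was RPL5, a partner of 5S ribosomal RNA that can bind MDM2 (-0.41 ± 0.13). RPL11, the other such partner, had -0.32 ± 0.11 with an adjusted p of 0.0508. FAU, which encodes RPS30 fused to a ubiquitin-like protein, had -0.23 ± 0.12 (adjusted p = 0.193), and RPSA had 0.18 ± 0.18 (adjusted p = 0.54).

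RPS7 differed most. It stood at 63.0 and 55.7 CPM in parental vehicle cells, at 73.7 and 76.9 in GR2 and at 13.6 and 12.9 in GR3, and under WZ4002 GR3 held 12 and 13.7 CPM. All 4 GR3 libraries were thus far below all others, whose lowest value was 32.4 CPM. The difference of GR3 from parental was -2.08 ± 0.13 (adjusted p = 6.74e-08). RPS7 is a small-subunit protein with 17.3% unique stretches. The next largest were RPL24 (-1.01 ± 0.13), RPS4X, encoded on the X chromosome (-1.0 ± 0.13), RPS27A, which encodes ubiquitin fused to a ribosomal protein (-0.96 ± 0.15), and RPL38 (-0.94 ± 0.13), and the call of each of these 5 held under every alternative scaling, filter, design and left-out library that was run. RPL24 stood at 219 and 179 CPM in parental vehicle cells and at 110 and 87.9 in GR3, with no overlap.

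The GR3 call count depended on which libraries carried the spread. It was 16 without parental vehicle replicate 1, 28 without parental vehicle replicate 2, 25 without GR3 vehicle replicate 2, 5 when only these 4 libraries were fitted, and 27 when CPM were rescaled to the listed genes. The listed genes held 54.6% of reads in both GR3 vehicle libraries, against 59.7 and 58.2% in the parental ones. That rescaling moved the member median to -0.32, and the median of all genes from 0.02 to 0.11.

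GR3 was also compared with GR2. The GR2 vehicle libraries are not those of the parental comparison, but the GR3 vehicle libraries are the same, so the 2 comparisons are not independent. GR3 members were lower in 62 of 79 cases and higher in 0, where 33.1% of all genes were called and 17.5% called lower, and 35.4% of the genes with a mean of at least 100 CPM. The median was -0.53, a ratio of 0.691. RPS7 differed by -2.42 ± 0.13, RPS27A by -1.64 ± 0.15, RPL24 by -1.11 ± 0.13, RPL23A by -1.09 ± 0.18 and RPL3 by -1.0 ± 0.12. RPL32 (0.20 ± 0.15, adjusted p = 0.36) and RPS26 (0.41 ± 0.18, adjusted p = 0.092) lay on the other side of 0. The count was 38 on CPM rescaled to the listed genes, with a member median of -0.32, and this rescaling also moved the median of all genes from -0.02 to 0.16. Both GR2 vehicle libraries lie in the last run of columns and neither GR3 vehicle library does. These libraries alone thus cannot separate population from run. With a term for the runs, 3915 of all genes tested were called, against 5132 without it. RPS27AP16, the pseudogene of RPS27A, differed by -0.91 ± 0.17 beside -1.64 for RPS27A. With the term for the runs, the members' median for GR3 against GR2 moved by less than 0.09, the pooled SD of the library medians. The part of single members' differences that went with the run is not given here.

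The 2 tolerant populations were lower than parental cells as well. In vehicle-treated gefitinib-tolerant cells 45 of 79 members were lower and 0 higher, where 19.0% of all genes were called and 9.64% called lower (16.3% of the genes with a mean of at least 100 CPM), and the median was -0.42 (ratio 0.746). In vehicle-treated WZ4002-tolerant cells 38 were lower and 0 higher, where 18.4% were called and 9.73% called lower (14.4% of those with at least 100 CPM), and the median was -0.38 (ratio 0.769). These comparisons and that of GR3 share the parental vehicle libraries, so they are set side by side without a measure of likeness.

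**Figure D3:**
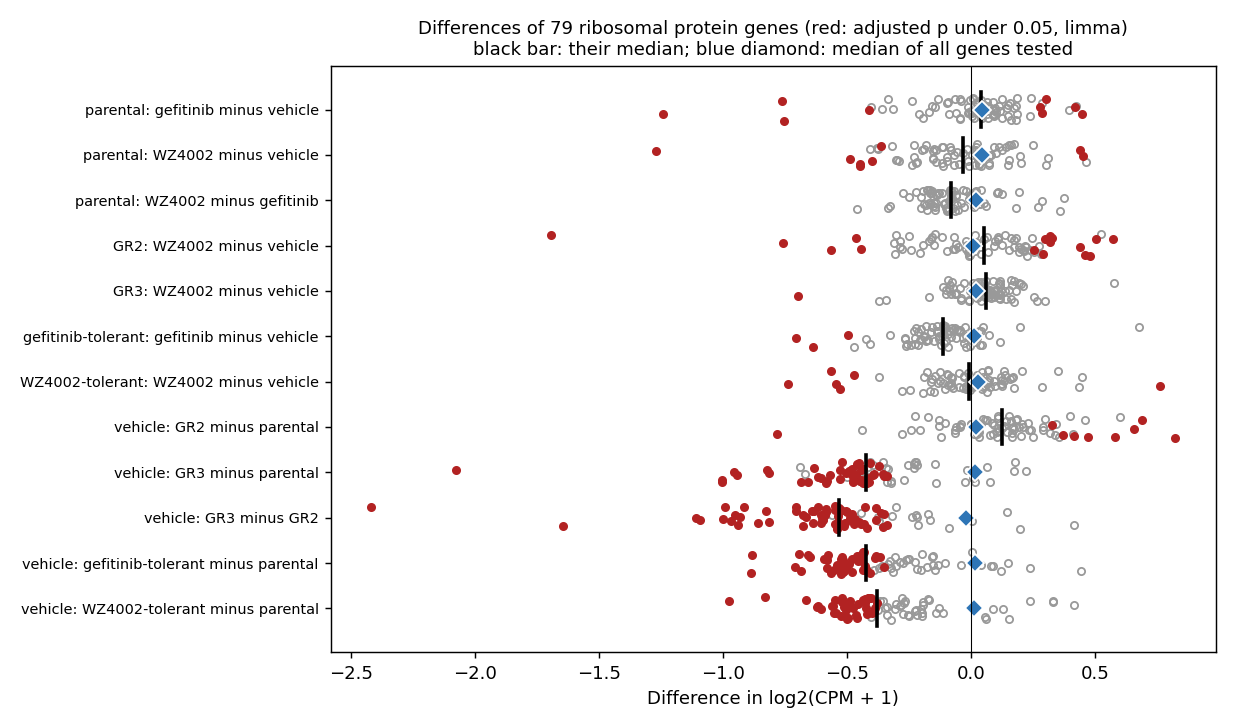
Differences of the 79 genes in log2(CPM + 1) (horizontal axis) in 12 comparisons (vertical axis). Filled red points passed an adjusted p of 0.05 in limma, open points did not, black bars are the members' medians and blue diamonds the medians of all genes tested. The members' medians lie between -0.53 and -0.38 in GR3 and the tolerant populations and between -0.11 and 0.06 under the inhibitors.

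RPL13A, a member of the GAIT complex as well as of the ribosome, differed most from parental cells in both tolerant populations. It stood at 535 and 577 CPM in parental vehicle cells, 304 and 296 in gefitinib-tolerant and 269 and 295 in WZ4002-tolerant vehicle cells. The differences were -0.89 ± 0.13 (adjusted p = 0.000301) and -0.98 ± 0.13 (adjusted p = 0.000167). RPL3 followed, with 372 and 366 CPM in gefitinib-tolerant and 377 and 387 in WZ4002-tolerant cells, against 748 and 620 in parental cells. Its differences were -0.88 ± 0.12 and -0.83 ± 0.12 (adjusted p = 0.000162 and 0.000316). For both genes the tolerant and parental libraries did not overlap. Of all genes tested, 29.1% lay wholly lower and 32.0% wholly higher in gefitinib-tolerant cells, and 30.1% and 32.5% in WZ4002-tolerant cells.

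RPLP0 (-0.49 ± 0.10 and -0.48 ± 0.10), RPS6 (-0.58 ± 0.11 and -0.56 ± 0.11), RPS3 (-0.51 ± 0.11 in both), RPL5 (-0.48 ± 0.13 and -0.50 ± 0.13), RPL11 (-0.37 ± 0.11 and -0.40 ± 0.11) and RPL10, a late-joining protein at the subunit interface (-0.59 ± 0.10 and -0.52 ± 0.10), were lower in the gefitinib-tolerant and WZ4002-tolerant cells respectively. RPS2 (-0.69 ± 0.14 and -0.55 ± 0.14), RPL7A (-0.66 ± 0.12 and -0.62 ± 0.12) and RPS18 (-0.65 ± 0.12 and -0.66 ± 0.12) were also lower in both populations, in the same order. RPL24, by contrast with its value in GR3, had -0.31 ± 0.13 and -0.23 ± 0.13 (adjusted p = 0.11 and 0.246), and RPS7 had -0.51 ± 0.13 and -0.50 ± 0.13 (adjusted p = 0.0129 and 0.0152). RPL39L (0.12 ± 0.21 and 0.15 ± 0.21) and RPS27L (0.24 ± 0.26 and 0.41 ± 0.26), the paralogs, were not called.

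The gefitinib-tolerant count was 15 without parental vehicle replicate 1, 16 without gefitinib-tolerant vehicle replicate 2 and 23 when only the 4 libraries were fitted. The WZ4002-tolerant count was 11 without parental vehicle replicate 1, 15 and 22 without WZ4002-tolerant vehicle replicate 1 and 2, and 19 with only the 4 libraries.

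By library, 51 of 79 members (64.6%) were lower in all 6 vehicle libraries of GR3 and the tolerant populations than in all 4 vehicle libraries of parental and GR2 cells, against 6.54% of all genes tested. This grouping follows the members' own summed share in the same libraries. The excess over all genes was therefore partly set in advance, and the count is a description and not a test.

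In vehicle-treated GR2 cells 8 members (10.1%) were higher and 1 lower than in parental cells, where 16.7% of all genes were called (8.98% higher and 7.76% lower). The share of members called higher was thus near that of all genes. The members' median was 0.12, and 0.0157 on CPM rescaled to the listed genes. The same rescaling moved the median of all genes from 0.02 to -0.06. RPL14 stood at 163 and 131 CPM in parental and 248 and 271 in GR2 cells (0.82 ± 0.16, adjusted p = 0.00311). RPS27A stood at 124 and 118 against 197 and 193 CPM (0.69 ± 0.15, adjusted p = 0.00537). RPSA (0.66 ± 0.18), RPLP0 (0.47 ± 0.10), RPS21 (0.42 ± 0.12), RPS12 (0.37 ± 0.11) and RPL10 (0.32 ± 0.10) were also higher. RPL32 was lower, at 183 and 193 against 330 and 318 CPM (-0.78 ± 0.15, adjusted p = 0.00309). Both GR2 vehicle libraries lie in the last run of columns and neither parental vehicle library does, so these libraries alone cannot separate population from run. With a term for the 3 runs of columns the count fell from 9 to 2, and RPS27A (0.51, adjusted p = 0.0712) and RPL32 (-0.46, adjusted p = 0.154) were no longer called. It was 2 to 5 when any 1 of the 4 libraries was left out, and 17 when only the 4 were fitted.

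The members with the largest differences between populations were set beside their neighbours on the chromosome, which were the 20 tested genes on each side of a member that are not members themselves, in the GENCODE order of the chromosome (32 in all for RPS7, which lies near the end of chromosome 2). In GR2 against parental vehicle cells, the neighbours of RPL32 on chromosome 3 had a median of -0.67 beside -0.78 for RPL32. Those of RPL15 on the same chromosome had -0.27 beside -0.44 (RPL15 not called), and those of RPL14 and RPSA had 0.25 and 0.27 beside 0.82 and 0.66. In GR3 against parental, the neighbours of RPS7 had -0.63 beside -2.08. Those of RPS27A had -0.50 beside -0.96, those of RPS4X -0.48 beside -1.0, those of RPL3 -0.48 beside -0.82, those of RPL24 -0.29 beside -1.01 and those of RPL38 -0.23 beside -0.94. Those of RPL13A had 0.04 beside -0.82. Neighbours' medians thus lay on the member's side of 0 in some cases and near 0 in others.

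Across the 79 members, which share libraries and in places neighbours, the Spearman correlation between a member's difference and its neighbours' median was 0.44 for GR3, 0.24 for GR2, 0.25 for gefitinib-tolerant and 0.14 for WZ4002-tolerant against parental cells. In gefitinib-tolerant cells the neighbours of RPL13A had -0.09 and those of RPL3 had -0.23, beside -0.89 and -0.88 for the genes. DNA copy number was not measured here.

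**Figure D4:**
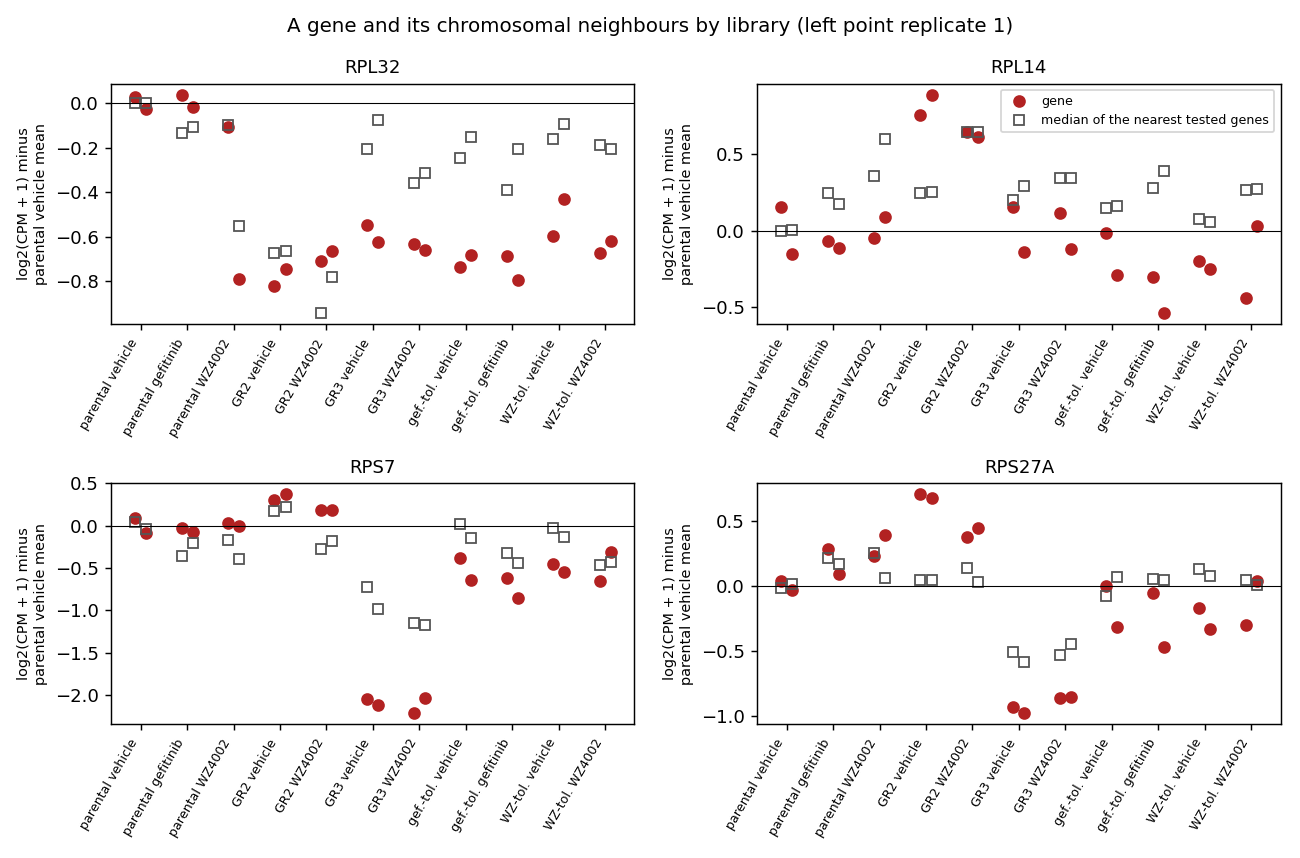
RPL32, RPL14, RPS7 and RPS27A (red points) and the median of their nearest tested genes on the chromosome (open squares) as log2(CPM + 1) minus the parental vehicle mean (vertical axis), by library in 11 groups (replicate 1 on the left). Parental WZ4002 replicate 2 lies at -0.79 for RPL32 and -0.55 for its neighbours, near the GR2 libraries, and replicate 1 at -0.11 and -0.10.

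The inhibitors changed few members within a day. In parental cells gefitinib raised 5 and lowered 4 of 79 members (11.4%), where 45.3% of all genes were called, and the median was 0.04. WZ4002 raised 2 and lowered 6 (10.1%), where 47.5% were called, with a median of -0.03. WZ4002 against gefitinib called 0 members and 0.0% of all genes by limma, with 4 members at an unadjusted p under 0.05, 0 by limma-voom, and a median of -0.08. In GR2, WZ4002 raised 11 and lowered 5 (20.3%), where 55.7% were called, with a median of 0.05. Both GR2 vehicle libraries lie in the last run of columns and neither GR2 WZ4002 library does. The GR2 libraries alone thus cannot separate drug from run. This limit applies to every GR2 response to WZ4002 given below, and to the differences in response that use it. In GR3 WZ4002 lowered 1 and raised 0 (1.27%), where 22% were called, with a median of 0.06. Gefitinib in gefitinib-tolerant cells lowered 3 and raised 0 (3.80%), where 28.7% were called, with a median of -0.11. WZ4002 in WZ4002-tolerant cells raised 1 and lowered 5 (7.59%), where 32.6% were called, with a median of -0.01. In each comparison with its vehicle the share of members called was below the share of all genes.

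These counts were small and moved with single libraries. Leaving out any 1 of the 4 libraries gave 3 to 6 calls for gefitinib in parental cells (3 without vehicle replicate 2, and 5 without either gefitinib library). It gave 3 to 7 for WZ4002 in parental cells (3 and 4 without vehicle replicate 1 and 2, 4 without WZ4002 replicate 2), and 7 to 10 in GR2 (10 and 8 without WZ4002 replicate 1 and 2, 7 and 10 without vehicle replicate 1 and 2). In the gefitinib-tolerant cells it gave 0 without vehicle replicate 1 or gefitinib replicate 2, and in the WZ4002-tolerant cells 0 without vehicle replicate 1, 2 without WZ4002 replicate 1 and 3 without either of the others. In GR3 it gave 0 without WZ4002 replicate 2 and 3 without vehicle replicate 2, and WZ4002 against gefitinib gave 2 without WZ4002 replicate 1. With a term for the runs of columns GR2 had 5 calls.

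RPL39L, the paralog of RPL39, had the largest fall of the members in parental, GR2 and GR3 cells. It stood at 28 and 20.9 CPM with vehicle, 10.3 and 9.03 with gefitinib and 8.72 and 10.2 with WZ4002 in parental cells. In GR2 it stood at 22.9 and 23.5 with vehicle and 7.38 and 5.68 with WZ4002. In these populations the treated and vehicle libraries did not overlap, and the calls held under every alternative run. The differences were -1.24 ± 0.21 (gefitinib, adjusted p = 0.0003), -1.27 ± 0.21 (WZ4002, adjusted p = 0.000235) and -1.69 ± 0.21 (GR2, adjusted p = 9.37e-06). In GR3 it stood at 25.9 and 18.3 against 16.4 and 10.4 CPM (-0.70 ± 0.21, adjusted p = 0.029), a call lost without vehicle replicate 1 (-0.46) or WZ4002 replicate 2 (-0.39).

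In gefitinib-tolerant cells RPL39L stood at 27.3 and 25.6 CPM with vehicle and 20.4 and 18.5 with gefitinib (-0.43, 95% interval -0.88 to 0.03). In WZ4002-tolerant cells it stood at 25.4 and 28.9 against 21.9 and 28.4 (-0.11, interval -0.57 to 0.34), and these groups overlapped. The difference between responses was tested itself. The WZ4002 response of RPL39L was 1.16 ± 0.30 higher in WZ4002-tolerant than in parental cells (adjusted p = 0.0401, where 4.49% of all genes were called) and 1.00 ± 0.30 higher in GR3 than in GR2 (adjusted p = 0.0389, where 13.6% were called). For GR3 against GR2, 0 members were called with a term for the runs of columns or with only the groups compared. For WZ4002-tolerant against parental cells 0 were called with no filter or with only the groups compared. The call for GR3 against GR2 was lost without GR3 WZ4002 replicate 1, GR3 vehicle replicate 2, GR2 WZ4002 replicate 2 or either GR2 vehicle library (0.69 to 1.01). The call for WZ4002-tolerant against parental cells was kept only without parental vehicle replicate 2 or WZ4002-tolerant WZ4002 replicate 1, and otherwise lost (0.96 to 1.26). In gefitinib-tolerant against parental cells the gefitinib response differed by 0.82 ± 0.30 (adjusted p = 0.193), and in GR3 against parental cells the WZ4002 response by 0.57 ± 0.30 (adjusted p = 0.357).

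**Figure D5:**
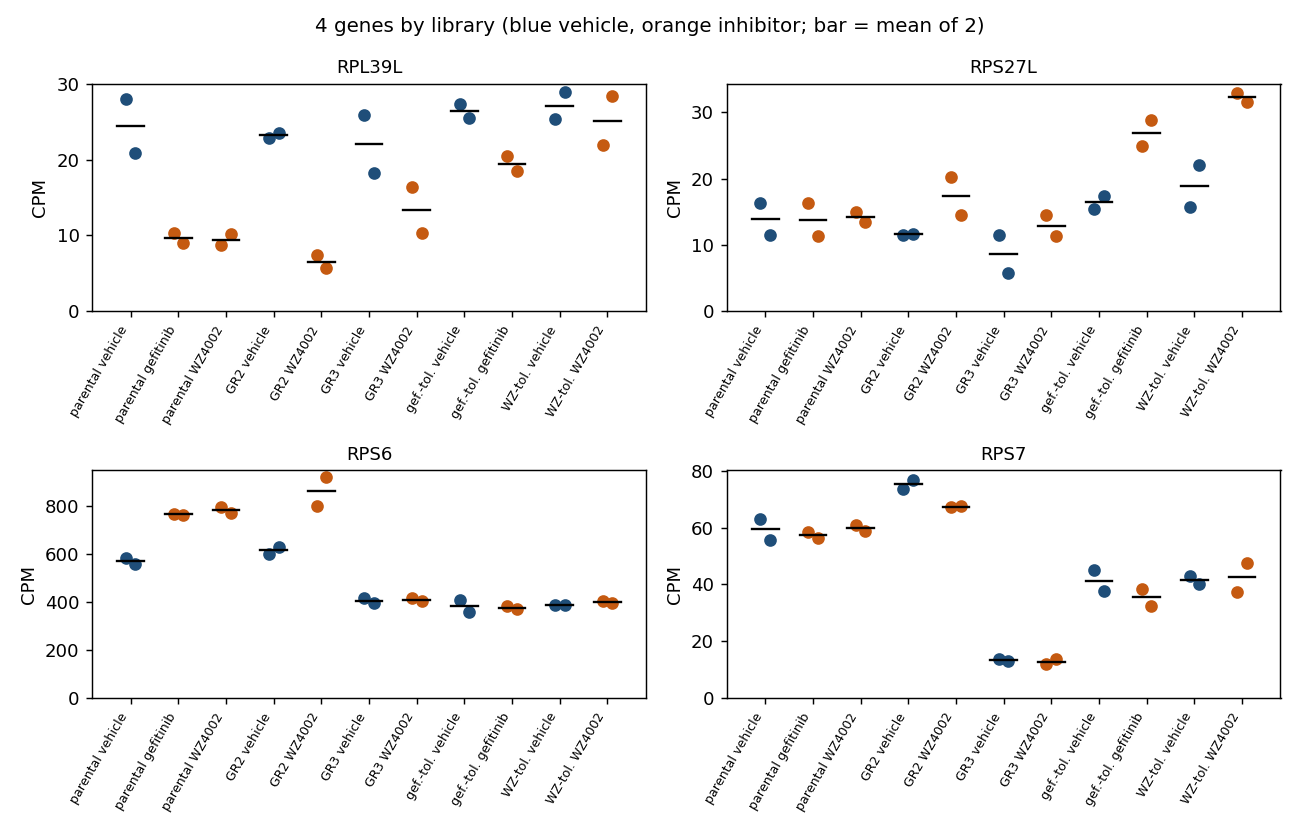
CPM (vertical axes, from 0) of RPL39L, RPS27L, RPS6 and RPS7 in the 22 libraries by group, with vehicle in blue, inhibitor in orange and the mean of 2 as a bar. RPL39L lies at 5.68 to 10.3 CPM in treated parental and GR2 cells and at 18.3 to 28.9 CPM in all vehicle libraries, and RPS7 lies at 12 to 13.7 CPM in GR3.

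RPS6 moved the other way in the populations in which RPL39L fell most. It stood at 583 and 558 CPM with vehicle, 764 and 762 with gefitinib and 792 and 768 with WZ4002 in parental cells. In GR2 it stood at 600 and 628 against 799 and 918. The rises were 0.42 ± 0.11, 0.45 ± 0.11 and 0.48 ± 0.11 (adjusted p = 0.00456, 0.00271 and 0.00125), with no overlap. In GR3 it stood at 414 and 396 against 415 and 404 CPM, and the responses in GR3, gefitinib-tolerant and WZ4002-tolerant cells were 0.02, -0.03 and 0.05 (adjusted p = 0.936, 0.87 and 0.764). The difference in response between GR3 and GR2 was -0.46 ± 0.15 with an adjusted p of 0.0504, which was below 0.05 under 6 of 9 alternative settings, and between GR3 and parental cells -0.44 ± 0.15 (adjusted p = 0.157).

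RPL34 rose in parental cells from 53.8 and 60.3 CPM to 76.5 and 79.6 with gefitinib (0.45 ± 0.11) and 79.6 and 75.6 with WZ4002 (0.44 ± 0.11; adjusted p = 0.00343 and 0.00366). RPLP0 (0.29 ± 0.10) and RPS9 (0.30 ± 0.10) rose with gefitinib. In GR2, RPL15 (0.57 ± 0.18), RPS18 (0.50 ± 0.12), RPL13A (0.46 ± 0.13) and RPL10 (0.44 ± 0.10) rose with WZ4002. RPL15 and RPS18 were not called with a term for the runs of columns (0.28 and 0.22).

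The WZ4002 response of RPS18 and RPS15A was higher in GR2 than in parental cells by 0.62 ± 0.17 and 0.61 ± 0.17 (adjusted p = 0.0428 for each), where 6.79% of all genes were called. With a term for the runs of columns neither was called. Without parental WZ4002 replicate 2 these values were 0.47 and 0.43 and were not called. Of the 8 libraries in this comparison, parental WZ4002 replicate 1 was the only one that could be left out with both calls kept. GR3 against parental cells (WZ4002) and gefitinib-tolerant against parental cells (gefitinib) had 0 members with a called difference in response by limma and by limma-voom, with 2 and 5 at an unadjusted p under 0.05, where 1.29% and 2.0% of all genes were called.

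RPL9, with 9.49% unique stretches, fell with gefitinib in parental cells (-0.76 ± 0.22), with WZ4002 in GR2 (-0.76 ± 0.22), with gefitinib in gefitinib-tolerant (-0.71 ± 0.22) and with WZ4002 in WZ4002-tolerant cells (-0.74 ± 0.22), from a mean level of 8.06 CPM. RPS3A (mean 1.99 CPM), RPL36A (2.60), RPL41 (5.26), RPL21 (2.70) and RPS26 (3.33) each fell in at least 1 comparison, and each had 0% unique stretches. On the log2(CPM + 1) scale such changes are understated.

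Falls were also called in abundant members. RPL35A, with 98.9% unique stretches, stood at 438 and 437 CPM with vehicle and 307 and 326 with WZ4002 in GR2 (-0.47 ± 0.12, adjusted p = 0.00356), with no overlap. RPL32, RPL35 and RPL8 fell with WZ4002 in parental cells. RPL8 stood at 1590 and 1477 CPM with vehicle and 1230 and 1152 with WZ4002 (-0.36 ± 0.13, adjusted p = 0.0316). RPL35 stood at 202 and 171 against 138 and 127 CPM (-0.49 ± 0.17, adjusted p = 0.024). RPL32 stood at 330 and 318 against 301 and 187 (-0.45 ± 0.15, adjusted p = 0.0258), and without WZ4002 replicate 2 it had -0.11 and was not called. RPL15 stood at 244 and 258 against 363 and 220 CPM, with 0.17 over both libraries and 0.53, called, without replicate 2.

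RPS27L rose in the WZ4002-tolerant cells, from 15.7 and 22 to 32.9 and 31.6 CPM (0.76 ± 0.26, adjusted p = 0.0357). In gefitinib-tolerant cells gefitinib gave 24.9 and 28.8 against 15.5 and 17.3 CPM, with no overlap, and 0.68 ± 0.26 (adjusted p = 0.0617). GR3 and GR2 had 0.57 and 0.52 (adjusted p = 0.124 and 0.1), and parental cells -0.01 and 0.04 (adjusted p = 0.975 and 0.911). The difference in response between gefitinib-tolerant and parental cells was 0.69 ± 0.37 (adjusted p = 0.392). Of a list of 8 genes of the p53 response to ribosomal stress, which includes RPS27L itself, 3 rose and 0 fell in gefitinib-tolerant cells (37.5% called, where 28.7% of all genes were), and 3 rose and 1 fell (MDM2, -0.51) in WZ4002-tolerant cells (50%, where 32.6% were). In parental cells 1 rose and 2 fell with each inhibitor (37.5%, where 45.3 and 47.5% were). BBC3, a p53 target that promotes apoptosis, rose under the inhibitor in both tolerant populations (1.24 and 1.35).

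Of 18 further TOP genes, which encode translation factors and related proteins, 4 were lower and 1 higher in GR3 than in parental vehicle cells, 10 lower in GR3 than in GR2, and 7 lower in each tolerant population. Of all genes, 11.1% were called lower in GR3 against parental cells and 17.5% in GR3 against GR2. The shares were 9.64% in gefitinib-tolerant and 9.73% in WZ4002-tolerant cells. EIF3L had -1.13 in GR3, and EIF3F had -0.70 and -0.71 in the tolerant cells. Of 10 snoRNA host genes of the TOP class, whose spliced RNAs are largely untranslated, 0 were called lower in GR3 or either tolerant population against parental cells. In GR2 4 were higher (SNHG5, 0.95), where 8.98% of all genes were called higher. Against GR2, 4 of the 10 were lower in GR3, with a median of -0.47, where 17.5% of all genes were called lower. Their summed level was 211 and 413 CPM in the GR3 vehicle libraries, against 272 and 288 in parental and 442 and 433 in GR2 vehicle cells, so the GR3 libraries lay on both sides of the parental ones. Of the other 734 tested genes with a pyrimidine run at the start, 102, 118 and 114 were lower in GR3, gefitinib-tolerant and WZ4002-tolerant cells, with medians of -0.01, -0.06 and -0.08. The shares of all genes called lower were 11.1, 9.64 and 9.73% in the same comparisons. The members with and without that run had medians of -0.41 and -0.45 in GR3 and of -0.39 and -0.43 in gefitinib-tolerant cells.

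The 142 tested pseudogene rows of ribosomal proteins, whose reads cannot be told from those of the parent genes with certainty, had 44, 33 and 37 lower and 0 higher in GR3, gefitinib-tolerant and WZ4002-tolerant against parental vehicle cells. Of all genes, 11.1, 9.64 and 9.73% were called lower in these comparisons. The 75 mitochondrial ribosomal protein genes had 2, 2 and 0 lower in these comparisons, with medians of -0.05, 0.03 and 0.05. Under gefitinib and WZ4002, 29 and 32 of them fell in parental cells (38.7 and 42.7%), where 21.8 and 22.3% of all genes were called lower. In GR2 38 fell (50.7%, where 28.3% of all genes did), in gefitinib-tolerant cells 28 (37.3%, against 13.6%) and in WZ4002-tolerant cells 20 (26.7%, against 15.6%). In GR3 5 fell (6.67%, against 9.87%) and 3 rose, and 10.7% were called where 22% of all genes were. The medians lay between -0.38 and -0.19.

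Of 12 chaperones and export factors of ribosomal proteins, 8 fell with each inhibitor in parental cells (66.7%), 9 in GR2 (75%), 6 in GR3 (50%), 7 in gefitinib-tolerant (58.3%) and 6 in WZ4002-tolerant cells (50%), beside the shares of all genes called lower that are given above for the mitochondrial genes. Among them the importin IPO5 fell by 1.18 and 1.31 on the log2 scale in parental cells and by 1.42 in GR2. Of 16 genes of mTOR signalling and translation control, 8 were called with gefitinib in parental cells (3 higher and 5 lower; 50%, where 45.3% of all genes were called). With WZ4002 10 were called there (3 higher and 7 lower, 62.5% against 47.5%) and 9 in GR2 (2 higher and 7 lower, 56.3% against 55.7%). In GR3 2 rose and 4 fell (37.5% against 22%), in gefitinib-tolerant cells 1 rose and 7 fell (50% against 28.7%), and in WZ4002-tolerant cells 1 rose and 6 fell (43.8% against 32.6%). Within this list EIF4EBP1, the translational repressor under mTOR, fell by 2.20 and 2.36 in parental cells, and LARP1 fell by 1.17 and 1.22. RPL22L1, the paralog of RPL22 that the rule leaves out, stood at 79.7 and 64.8 CPM with vehicle and 30.4 and 28 with gefitinib in parental cells (-1.27), and fell by 2.0 in GR2. RPL22 itself stood at 45.8 and 51.5 against 53.9 and 47.9 CPM, and its vehicle and gefitinib libraries overlapped.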

How the data were processed

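PolyA RNA of 22 libraries in 11 groups of 2 was sequenced with a directional kit, per the labels' protocols. The submitters' processing notes name STAR, HTSeq and the hg19 build. Versions, strand and multiple-alignment settings are not given in the sources used here. The deposited table holds CPM, counts scaled to the library total, of 17165 genes, rounded by the authors to 2 decimals, with 0 columns of other samples. All values were whole multiples of 1 read within that rounding, from which totals of 23.6 to 49.6 M reads were computed. With so wide a rounding, 23.6 to 49.6% of values would be whole by chance, most libraries did not pass a stricter check of whole reads, and GR2 vehicle replicate 1 has a second possible total. The totals are estimates, and limma-voom rests on them.

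Genes with at least 1 CPM in 2 libraries (15485) were fitted with limma 3.58.1 in R 4.3.3 on log2(CPM + 1), with 11 group means, a mean-variance trend and Benjamini-Hochberg adjustment per comparison, and 0.05 as the threshold. The pseudocount of 1 understates changes of low genes. Simulated data with known changes were used to check the fit. Differences in response were contrasts of the same fit. Uniqueness used 50-base stretches of GENCODE 29 transcripts on GRCh38, whose coordinates were not mixed with those of the files. Members were named if among the 4 largest rises or falls called in a comparison, of a listed role or paralog pair, or among the highest, lowest or most and least variable members, and up to 3 genes of lowest p were named from each other list. RPS12, RPS21 and RPL7A were chosen after their values were seen. The members and gene lists were chosen with earlier results of these data known. Alternatives covered pseudocount, filter, scaling, design, replicate block and each left-out library, and 3 (the term for runs of columns, limma-voom and the members of high uniqueness) were chosen after seeing the data. Some members are not reported here.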

Additional observations from a re-analysis of the deposited data

Results flagged for a closer look

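In 4 cases a test of the difference itself found that the response of a member to WZ4002 differed between populations by limma with Benjamini-Hochberg adjustment. RPL39L responded 1.0 higher on the log2(CPM + 1) scale in GR3 than in GR2 cells (adjusted p = 0.0389) and 1.16 higher in WZ4002-tolerant than in parental cells (adjusted p = 0.0401). RPS15A and RPS18 responded 0.61 and 0.62 higher in GR2 than in parental cells (adjusted p = 0.0428 for each). With a term for the runs of columns, 0 members were called for GR3 against GR2 and 0 for GR2 against parental cells. For WZ4002-tolerant against parental cells 0 were called with no filter, and 0 when only the groups compared were fitted. Groups of 2 libraries were too small for a test of single outlying libraries.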

How the results depend on the processing

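No value changed its direction past the threshold. Fitted with only the groups compared, the members called numbered 1 (parental, WZ4002), 27 (GR2), 0 (GR3), 1 (gefitinib-tolerant) and 2 (WZ4002-tolerant) under drug. With vehicle they numbered 17 (GR2 against parental), 5 (GR3 against parental), 40 (GR3 against GR2), 23 (gefitinib-tolerant) and 19 (WZ4002-tolerant), and for differences in response 0 (GR3 against GR2), 1 (GR2 against parental) and 0 (WZ4002-tolerant against parental). The term for runs of columns gave 5 (GR2, WZ4002), 7 (gefitinib-tolerant, gefitinib), 2 (GR2 against parental), and 0 (GR3 against GR2), 0 (GR2 against parental) and 1 (gefitinib-tolerant against parental) for differences in response.

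Scaling to listed genes gave GR3 against parental 27 calls and a median of -0.32 (-0.33 with ribosomal protein genes left out of the scaling, and 27 calls), and GR3 against GR2 38 calls and -0.32 (-0.33 and 38). It gave a median of 0.0157 for GR2 against parental cells under both scalings, and -0.0747 for the gefitinib response of gefitinib-tolerant minus parental cells. Leaving the ribosomal protein genes out of the scaling gave -0.10 for the WZ4002 response of GR3 minus GR2 and 0.22 for that of GR2 minus parental cells. The median of all genes moved too, by over 0.1 only for GR3 against GR2, from -0.02 to 0.16 or 0.15. It moved from 0.02 to 0.11 or 0.10 for GR3 against parental cells, and from 0.02 to -0.06 for GR2 against parental cells. For the gefitinib response of gefitinib-tolerant minus parental cells it moved from -0.02 to 0.06. With the ribosomal protein genes left out, it moved from 0.02 to -0.05 for the WZ4002 response of GR3 minus GR2. For that of GR2 minus parental cells it moved from -0.04 to 0.04. The WZ4002 response of GR3 against GR2 had 2 calls under a pseudocount of 0.1, median-of-ratios scaling and limma-voom, and that of WZ4002-tolerant against parental cells had 0 with no filter. The cause of these changes was not tested.

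With 1 library left out, calls ranged from 3 to 6 (parental, gefitinib), 3 to 7 (parental, WZ4002), 0 to 2 (WZ4002 against gefitinib), 7 to 10 (GR2), 0 to 3 (GR3), 0 to 3 (gefitinib-tolerant, median -0.2027 to -0.0194) and 0 to 3 (WZ4002-tolerant). With vehicle they ranged from 2 to 5 (GR2), 16 to 41 (GR3), 15 to 35 (gefitinib-tolerant, median -0.49 to -0.32) and 11 to 26 (WZ4002-tolerant), each against parental cells. For differences in response they ranged from 0 to 2 (GR3 against GR2), 0 to 4 (GR2 against parental), 0 to 1 (GR3 against parental) and 0 to 1 (WZ4002-tolerant against parental, median -0.0527 to 0.1194), and the median for gefitinib-tolerant against parental ranged from -0.2574 to -0.0735. The lone library left in a group is then assumed to vary like the other groups. Of the values for single genes, 121 lost their call and 4 gained one with 1 library left out, and 65 and 14 under the other settings.

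The labels do not say that replicate numbers pair the libraries, and the correlation of same-numbered deviations ran from -0.26 to 0.63. With a replicate block the calls were 49 (GR3), 47 (gefitinib-tolerant), 39 (WZ4002-tolerant) and 10 (GR2) against parental vehicle cells, 62 (GR3 against GR2), 5 for gefitinib in gefitinib-tolerant cells and 2 for the WZ4002 response of GR3 against GR2. A count model on the recovered reads was planned and not run. Low members rest on few reads, and the intervals cover only the spread between 2 libraries.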

Other observations

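Of the 4 tested paralogs that the rule leaves out, 2 fell with each inhibitor in parental cells and 2 with WZ4002 in GR2, and 0 rose. This is 50% called in each, where 45.3, 47.5 and 55.7% of all genes were called. RPL22L1 stood at 60.3 and 59.0 CPM in GR2 vehicle and 13.2 and 15.2 CPM in GR2 WZ4002 libraries, and at 62.2 and 80.1 against 62.0 and 89.3 CPM in WZ4002-tolerant cells. Its WZ4002 response was 1.48 higher in WZ4002-tolerant than in parental cells on the log2(CPM + 1) scale (adjusted p = 0.0488 by limma) and 1.5 higher in GR3 than in GR2 (adjusted p = 0.022). With vehicle RPL22L1 was lower in GR3 than in parental cells (-1.46, adjusted p = 0.00184).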
